A study of Mus musculus with 10 samples.

Results

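The genes described here encode enzymes that place or remove methyl groups on lysine 4 of histone H3 (H3K4) and subunits that partner with them. They were chosen by name: the methyltransferases Kmt2a, Kmt2b, Kmt2c, Kmt2d, Setd1a and Setd1b, the complex subunits Kdm6a, Ncoa6 and Paxip1, and the demethylase Kdm1a. All 10 were found in both deposited tables, among 27998 genes in the table of E14Tg2a cells and 32285 in the table of R1 cells.

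H3K4 methyltransferases work in large complexes that share a core of small subunits. MLL1 and MLL2 (Kmt2a and Kmt2b) and the SET1 enzymes (Setd1a and Setd1b) act mainly at promoters, whereas MLL3 and MLL4 (Kmt2c and Kmt2d) monomethylate H3K4 at enhancers in complexes that also hold UTX (Kdm6a), NCOA6 and PTIP (Paxip1). LSD1 (Kdm1a) removes methyl groups from H3K4 and takes part in switching off enhancers as embryonic stem cells (ESC) leave the naive state.

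Single-cell RNA was counted by unique molecular identifier (UMI) at the 3′ end of transcripts in 10 mouse libraries, 1 for each condition. The E14Tg2a libraries, all wild type, held ESC in serum and LIF (S+L ESC), ESC in serum-free medium with LIF and inhibitors of MEK and GSK3β (2i ESC), epiblast-like cells (EpiLC) after 1, 2 and 3 days with Activin A, bFGF and knockout serum replacement (KSR), epiblast stem cells (EpiSC) passaged in Activin A and bFGF, and embryoid bodies (EB) made from d2 EpiLC and kept for 2 or 4 days with BMP4, SCF, LIF and EGF to induce primordial germ cell-like cells (PGCLC). The R1 libraries held d4 EB of wild-type cells and of a clonal R1-derived line whose MLL3 and MLL4 lack catalytic activity (genotype Mll3/4 dCD). With 1 library for each condition, stage or genotype cannot be told apart from library, and no test was possible.

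The E14Tg2a libraries held 227 cells (2i ESC) to 537 cells (d2 EB) and 8757170 to 14649279 UMIs, with medians of 21658 UMIs per cell in d4 EB to 36750 in d1 EpiLC. The R1 libraries held 1416 wild-type and 1699 dCD cells, with 20586629 and 22887974 UMIs. The E14Tg2a libraries were made with v2 and the R1 libraries with v3 chemistry, so levels are compared within a table only. For each level, the UMIs of all cells in a group were added up and scaled to 1000000 (CPM), with exact Poisson 95% intervals. Ratios have exact conditional binomial intervals, and all intervals cover counting error only. As 3′ counts depend on how each transcript end was primed and annotated, the levels of different genes were not ranked.

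The labels were checked against marker genes. The naive markers Zfp42, Klf4, Esrrb and Tbx3 summed to 916.4 CPM in 2i ESC and 1017.0 in S+L ESC, and over EpiLC to 158.3 on d1, 29.3 on d2 and 33.9 on d3. They summed to 7.44 CPM in EpiSC, and in EB to 238.6 on d2 and 263.3 on d4, led there by Tbx3. The sum of naive markers was thus highest in both ESC libraries and intermediate in d1 EpiLC and EB. Tbx3 alone did not follow it, with 147.4 CPM in d2 EB and 131.7 in d4 EB, against 145.3 in 2i ESC and 92.5 in S+L ESC. Fgf5, Dnmt3b, Otx2 and Pou3f1, markers of EpiLC, summed to 1215.1 CPM in d2 EpiLC and 53.8 in 2i ESC. The primed markers T, Fgf8, Foxa2 and Cer1 reached 401.8 CPM in EpiSC, 195.6 in d2 EB and 38.6 in d2 EpiLC, against 13.4 or less in the other E14Tg2a libraries. Foxa2 and Cer1 had 588 and 631 UMIs in EpiSC and 6 or fewer in each other E14Tg2a library. The sum in d2 EpiLC thus came mainly from Fgf8, and that in d2 EB from Fgf8 and T, the latter at 63.6 CPM. The EpiLC markers were also seen in EpiSC, at 745.4 CPM, above the 672.8 of d3 EpiLC. EB held other lineages as well: the mesoderm list (Pitx1, Tbx4, Hand1 and Msx1) summed to 1046.7 CPM in d2 EB and 583.9 in d4 EB, against 8.46 or less in the libraries outside EB. Between the E14Tg2a libraries 8 barcode sequences were shared, and 0 between the R1 libraries.

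Among the MLL1 and MLL2 genes, Kmt2a (chromosome 9, 44803355 to 44881296, minus strand, GRCm38) was lowest in ESC. Its level was 16.9 CPM in 2i ESC (interval 14.3 to 19.9) and 17.8 in S+L ESC. EpiLC had 23.9 CPM on d1, 25.3 on d2 and 33.3 on d3. EpiSC had 21.9 CPM, and EB 33.0 on d2 and 34.2 (30.6 to 38.1) on d4. The intervals of d3 EpiLC and both EB libraries lay above those of all other libraries. Kmt2b (chromosome 7, 30568858 to 30588726) ran from 17.1 CPM in d3 EpiLC over a median of 20.7 to 23.3 in S+L ESC. This span of 1.36-fold was the narrowest of the members. All 7 pairs of neighbors in its order had overlapping intervals, but those of its ends lay apart (15.0 to 19.4 and 20.4 to 26.4 CPM). Within this pair, Kmt2a held 42.5% of the UMIs in 2i ESC (exact binomial interval 37.3% to 47.9%) and 43.4% in S+L ESC. EpiLC had 52.4% on d1, 54.4% on d2 and 66.1% (62.4% to 69.5%) on d3. EpiSC had 53.8%, and EB 63.9% on d2 and 62.8% on d4. The Kmt2a share was thus lower in ESC than in d3 EpiLC and EB, with intervals apart, a quantity that scaling of the libraries does not touch.

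The MLL3 and MLL4 genes followed different courses. Kmt2c (chromosome 5, 25271798 to 25498783) had 14.2 CPM in 2i ESC and 19.4 in S+L ESC. EpiLC had 13.8 CPM on d1, 9.95 (8.19 to 12.0) on d2 and 12.3 on d3. EpiSC had 12.8 CPM, and EB 12.7 on d2 and 22.3 (19.4 to 25.5) on d4. The low point of Kmt2c was thus d2 EpiLC. Kmt2d (chromosome 15, 98831669 to 98871204) had 7.19 CPM in 2i ESC (5.53 to 9.20) and 8.91 in S+L ESC. EpiLC had 9.91 CPM on d1, 10.2 on d2 and 11.4 on d3. EpiSC had 13.9 CPM, and EB 12.8 on d2 and 16.5 on d4. Kmt2d was thus lowest in 2i ESC, and both genes were highest in d4 EB, although neighbors in either order overlapped in all 7 pairs. Kmt2c held 66.3% of the UMIs of this pair in 2i ESC (59.1% to 73.0%) and 68.5% in S+L ESC. EpiLC had 58.2% on d1, 49.3% (42.6% to 56.1%) on d2 and 51.8% on d3. EpiSC had 47.9%, and EB 49.9% on d2 and 57.5% on d4. The Kmt2c share was thus higher in both ESC libraries than in d2 EpiLC, EpiSC and d2 EB, with intervals apart.

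The SET1 genes were both low in ESC. Setd1a (chromosome 7, 127776670 to 127800122, plus strand) had 17.4 CPM in 2i ESC and 15.5 in S+L ESC. EpiLC had 38.1 CPM (34.5 to 41.9) on d1, 24.8 on d2 and 21.0 on d3. EpiSC had 25.8 CPM, and EB 21.4 on d2 and 17.2 on d4. Its peak in d1 EpiLC had an interval above those of all other libraries. Setd1b (chromosome 5, 123142193 to 123168629, plus strand) had 10.6 CPM in 2i ESC and 11.7 in S+L ESC. EpiLC had 20.8 CPM on d1, 14.8 on d2 and 13.6 on d3. EpiSC had 19.7 CPM, and EB 20.5 on d2 and 24.5 (21.4 to 27.8) on d4. Both were higher in d1 than in d2 EpiLC, and they parted in EB: the Setd1a share of the pair was 64.7% in d1 EpiLC (60.8% to 68.3%), 51.1% in d2 EB and 41.2% in d4 EB (36.4% to 46.2%).

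**Figure D1:**
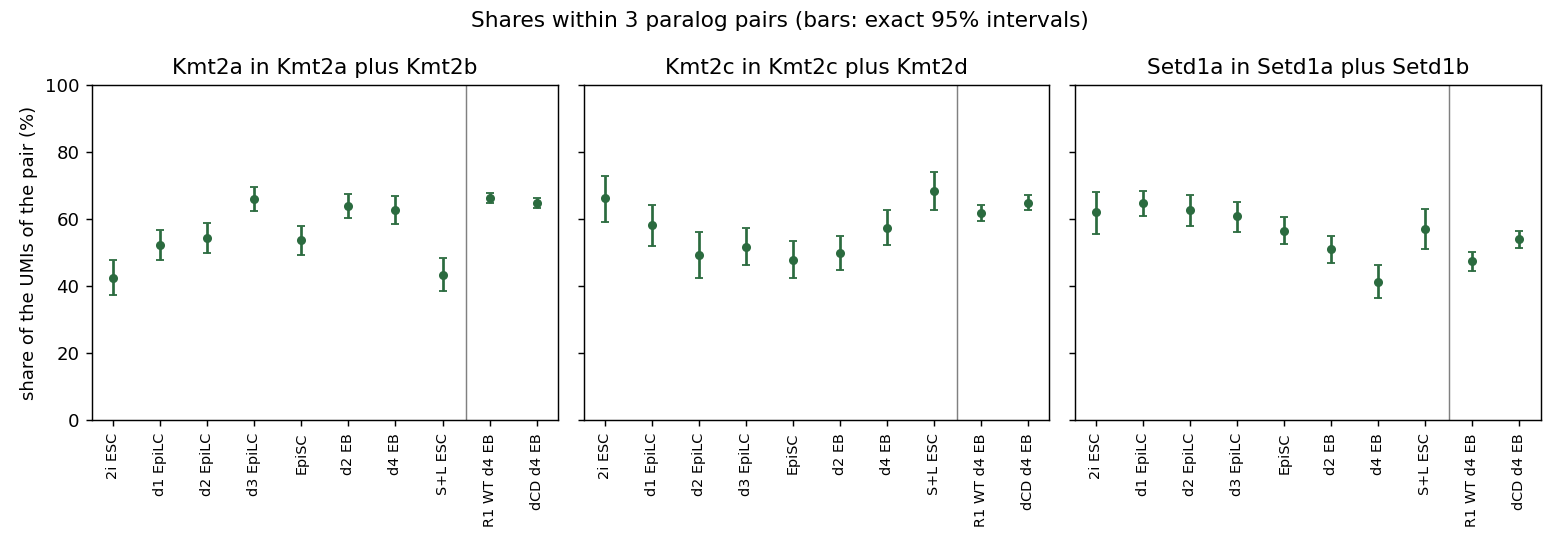
Share of the first gene in the UMIs of 3 paralog pairs in each library (y axis, percent), with exact 95% intervals as bars; the grey line divides the E14Tg2a from the R1 libraries. The Kmt2a share was 42.5% in 2i ESC and 66.1% in d3 EpiLC, and the Setd1a share 64.7% in d1 EpiLC and 41.2% in d4 EB.

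Among the subunits, Ncoa6 (chromosome 2, 155390656 to 155473894), a coactivator that binds nuclear receptors, covered the widest span of the members, 3.29-fold. It had 16.7 CPM in 2i ESC (14.1 to 19.6) and 9.80 in S+L ESC. EpiLC had 7.27 CPM (5.77 to 9.05) on d1, 8.07 on d2 and 8.38 on d3. EpiSC had 14.5 CPM, and EB 13.9 on d2 and 23.9 (21.0 to 27.3) on d4. The 3 EpiLC libraries were low and d4 EB lay above all others. Kdm6a (chromosome X, 18162575 to 18279936), the H3K27 demethylase UTX, had 10.7 CPM in 2i ESC as its lowest level, a median of 15.4 and 19.0 in d2 EB as its highest. Paxip1 (chromosome 5, 27740080 to 27791691), whose product PTIP also acts in the DNA damage response, ran from 21.2 CPM in S+L ESC over a median of 27.8 to 35.8 in d1 EpiLC. For Kdm6a and Paxip1 all 7 pairs of neighbors overlapped, but the lowest and highest libraries lay apart. Their intervals were 8.67 to 13.1 and 16.8 to 21.3 CPM for Kdm6a, and 18.4 to 24.2 and 32.4 to 39.5 CPM for Paxip1.

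Kdm1a (chromosome 4, 136550540 to 136602723), the demethylase, had 107.3 CPM in 2i ESC and 120.4 in S+L ESC (113.7 to 127.3). EpiLC had 95.6 CPM on d1, 96.1 on d2 and 86.6 on d3. EpiSC had 70.4 CPM (65.8 to 75.1), and EB 89.4 on d2 and 79.1 on d4. It was highest in both ESC libraries and lowest in EpiSC. Over the 8 libraries its log2 level ran against that of Kmt2d (Pearson r = -0.84, Spearman rho = -0.90) and Setd1b (r = -0.72, rho = -0.62), and with that of Kmt2b (r = 0.74, rho = 0.79). By Pearson r the closest pairs of members were Kdm6a with Setd1b (r = 0.86, rho = 0.81) and Kmt2d with Setd1b (r = 0.84, rho = 0.71). By rho Kmt2b with Kdm1a, Setd1a with Paxip1 (0.76) and Kmt2a with Kmt2d (0.74) were closer than Kmt2d with Setd1b. These coefficients describe 8 libraries of a single line that differ in stage, depth and cell makeup together.

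**Figure D2:**
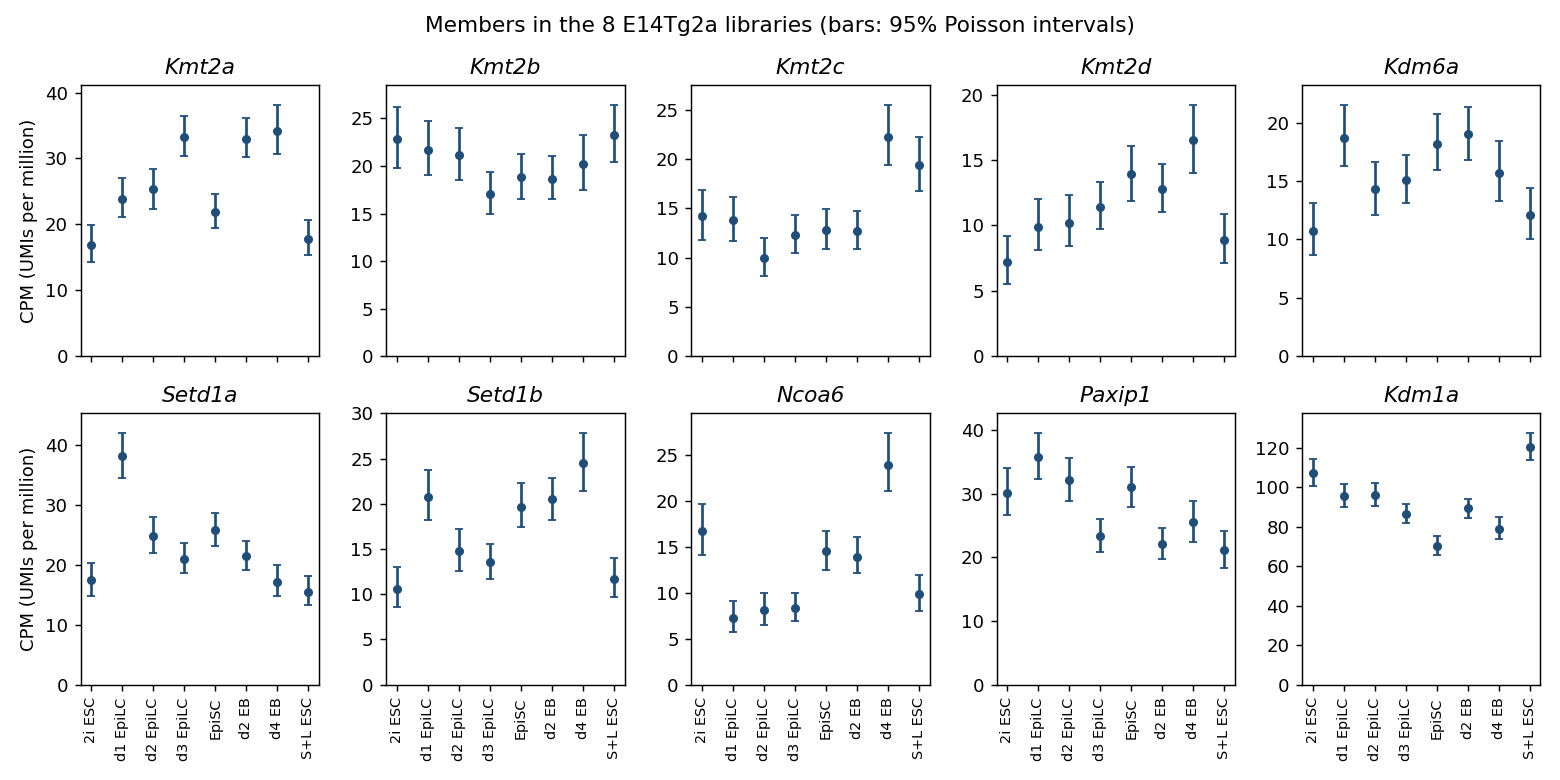
CPM of each member in the 8 E14Tg2a libraries, 1 point per library, with 95% Poisson intervals as bars and y axes from 0 that differ between panels. Kmt2a and Kmt2d are lowest in 2i ESC, Setd1a peaks in d1 EpiLC at 38.1 CPM, and Ncoa6 is lowest in the EpiLC libraries.

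To read these courses step by step, a gene was counted as changed when its CPM, with 1 added, differed at least 1.5-fold and both groups together held at least 50 UMIs. All 10 members had enough UMIs in all 10 comparisons. On leaving the naive state, from 2i ESC to d1 EpiLC, 3 of 10 members were higher, against 24.8% of all 9653 genes tested, and 1 was lower, against 14.2%. Setd1a was 2.19-fold (1.82 to 2.66), Setd1b 1.96-fold (1.53 to 2.52) and Kdm6a 1.74-fold (1.36 to 2.25) as high, and the ratio of Ncoa6 was 0.436 (0.328 to 0.577). The median log2 ratio of all genes was 0.17, and after it was set to 0 Kdm6a had a log2 ratio of 0.58, just short of the rule, while Setd1a, Setd1b and Ncoa6 kept theirs at 0.92, 0.74 and -1.27. That scaling also moved the share of higher genes among all changed genes from 63.5% to 47.9%. With thinned cells the gap of Ncoa6 was wider, at 69 UMIs in 223 cells of 2i ESC and 22 in 267 cells of d1 EpiLC.

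From d1 to d2 EpiLC 0 members were higher, against 20.2% of genes, and 1 was lower, against 12.9%: the ratio of Setd1a was 0.652 (0.558 to 0.760). Setd1a no longer passed the rule when CPM was averaged over cells or when cells were thinned to one number of UMIs, with log2 ratios of -0.57 and -0.46. With thinned cells Setd1b passed as lower in its place, at -0.74, and Ncoa6 as higher, at 0.74, so which members passed depended on this choice. From d2 to d3 EpiLC 0 members were higher, against 12.0%, and 0 lower, against 11.9%. Over the whole step from 2i ESC to d2 EpiLC 0 members were higher, against 28.7%, and only Ncoa6 was lower, at 0.484 (0.368 to 0.634), against 11.6%. Kmt2a missed the rule there with a log2 ratio of 0.55, and the interval of its CPM ratio was 1.22 to 1.84. It passed without doublets and with CPM averaged over cells, at 0.59 and 0.68. Setd1a passed as higher with CPM averaged over cells and with thinned cells, at 0.64 and 0.62, and Kmt2d with thinned cells at 0.67. The median of all genes in this step was 0.25 on the log2 scale. With it set to 0 Kmt2c also counted as lower at -0.72, against 17.4% of genes. The share of higher genes among those changed then moved from 71.2% to 51.3%.

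Between d3 EpiLC and EpiSC 1 member was higher, against 21.2% of genes, and 1 lower, against 12.3%. Ncoa6 was 1.73-fold as high in EpiSC (1.37 to 2.20) and Kmt2a had a ratio of 0.656 (0.564 to 0.763). With a log2 ratio of -0.59 Kmt2a only just passed the rule, and its call ended without doublets and with thinned cells. Thinned cells held 195 UMIs of Kmt2a in 389 d3 EpiLC cells and 121 in 361 EpiSC cells. The lost call alone thus does not show a smaller change. With thinned cells Setd1b passed as higher at 0.67. The median of all genes was 0.15, and after centring Ncoa6 stood at 0.57, just short of the rule, and Kmt2a at -0.74, with the share of higher genes moving from 63.2% to 46.8%. Between the ESC media 0 members were higher in S+L ESC, against 16.0%, and 1 was lower, against 9.88%: the ratio of Ncoa6 was 0.588 (0.451 to 0.764). With thinned cells Kmt2c also passed as higher, at a log2 ratio of 0.68, and Paxip1 as lower, at -0.62. Kmt2a and Kmt2b were at ratios of 1.05 (0.843 to 1.32) and 1.02 (0.840 to 1.24) between the 2 media.

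From d2 EpiLC to d2 EB 1 member was higher, against 24.9% of genes, and 0 lower, against 18.6%. Ncoa6 was 1.73-fold as high (1.34 to 2.24), but its log2 ratio was 0.18 with thinned cells, where Setd1b passed at 0.64, and Paxip1 had the lowest ratio, 0.689 (0.591 to 0.803), within the rule. From d2 to d4 EB 2 members were higher, against 19.4%, and 0 lower, against 7.64%. Kmt2c was 1.76-fold (1.44 to 2.15) and Ncoa6 1.72-fold (1.42 to 2.09) as high in d4 EB. The median of all genes was 0.11, and after centring both stayed past the rule, at 0.66 and 0.64, while the share of higher genes moved from 71.8% to 60.6%. Markers of other cell types moved along: all 4 genes of the extraembryonic ectoderm list (Esx1, Rhox6, Rhox9 and Elf5) had a UMI in d4 EB, where they summed to 567.5 CPM, against 46.5 in d2 EB, with Elf5 at 3 UMIs or fewer. That difference lay in Rhox6, from 16.2 to 327.0 CPM, and Rhox9, from 22.1 to 235.2, while Esx1 went the other way, from 8.12 CPM (6.73 to 9.72) to a level with an interval of 3.69 to 6.63. The endothelial list (Cldn5, Emcn, Kdr and Cdh5) went from 16.6 to 197.3 CPM, led by Cldn5. The mesoderm list was split: Hand1 went from 770.3 to 217.9 CPM and Msx1 from 249.1 to 114.6, but Pitx1 from 20.1 to 182.4 and Tbx4 from 7.24 to 68.9, and the sum from 1046.7 to 583.9. The part of cell makeup in the members' ratios was not tested. Across these 8 comparisons, which share libraries, the members' counts lay near or below those of all genes in most steps. The sum of the 10 members ran from 242.1 CPM in d3 EpiLC (234.0 to 250.3) to 285.7 in d1 EpiLC (275.8 to 295.9).

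The EB libraries also held PGCLC. In all, 135 barcodes are listed as PGCLC, from clusters of the same cells, 91 in d2 EB and 44 in d4 EB. These cells were compared with the other 770 EB cells, as a description, since the clusters were made from the same counts. The PGC markers Prdm1, Dppa3, Tfap2c, Prdm14, Nanos3 and Dnd1 summed to 455.1 CPM in d2 PGCLC and 43.2 in other d2 EB cells, and to 406.8 in d4 PGCLC and 51.7 in other d4 EB cells. The primed list was also higher in d2 PGCLC, at 387.0 CPM against 147.7, through Fgf8 and T. Listed PGCLC were deeper, with a median of 26764 UMIs against 22980.5. Of the members 0 were higher in PGCLC, against 10.1% of 11102 genes, and 0 lower, against 29.1%. The median log2 ratio of all genes was -0.23 and that of the members 0.02. With the median of all genes set to 0, the share of higher genes among those changed moved from 25.8% to 43.7%. Kdm6a then counted as higher at 0.68, against 16.2% of all genes. On d2 alone 0 members were higher, against 9.69% of genes, and 0 lower, against 20.8%. On d4 alone 0 were higher, against 11.6%, and only Ncoa6 was lower, against 45.8%. After centring 0 members were lower, against 28.2% of genes. Kmt2c and Kdm6a then counted as higher at 0.81 and 0.92, against 24.7%.

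Kdm6a had 23.1 CPM in listed PGCLC (18.6 to 28.3) and 16.6 in other EB cells (14.9 to 18.5), a ratio of 1.39 (1.09 to 1.75). It was on the higher side on both days, at 23.9 against 17.8 CPM on d2 and 20.9 against 15.1 on d4, although the d4 ratio of 1.38 had an interval of 0.837 to 2.18. Kdm1a had 98.1 against 82.8 CPM, a ratio of 1.18 (1.06 to 1.32), with 104.3 against 85.6 CPM on d2 and 80.6 against 79.0 on d4. Its ratio was 1.22 on d2 (1.07 to 1.39) and 1.02 on d4 (0.805 to 1.28), and whether the days differ was not tested.

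Kmt2a and Ncoa6 had pooled ratios below 1, as did most genes. Kmt2a had 25.8 CPM in listed PGCLC and 35.0 in other EB cells, a ratio of 0.738 (0.594 to 0.909). Its ratio was 0.756 on d2 (0.584 to 0.966), with 26.3 against 34.7 CPM, and 0.698 on d4 (0.449 to 1.04), with 24.7 against 35.3. With the median of all genes set to 0, its log2 ratio was -0.27 on d2 and -0.02 on d4, where that median was -0.48, so on d4 Kmt2a lay close to the median of all genes. Ncoa6 had 13.3 against 18.8 CPM, a ratio of 0.707 (0.520 to 0.944), and passed the rule as lower with thinned cells, at a log2 ratio of -0.73. Within a day its intervals held 1: the ratio was 0.856 on d2 (0.580 to 1.23), with 12.3 against 14.3 CPM, and 0.647 on d4 (0.370 to 1.06), with 16.1 against 24.9, and the centred log2 ratios were -0.09 and -0.12. Among other EB cells Ncoa6 was thus higher on d4 than on d2. In PGCLC, with 36 UMIs on d2 and 17 on d4, the intervals of the days overlapped (8.60 to 17.0 and 9.39 to 25.8 CPM). Whether the 2 groups differ in this was not tested. As d4 gave 44 of the 135 listed PGCLC and 324 of the 770 other cells, day and group are mixed in its pooled ratio.

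Within the MLL1 and MLL2 pair, the Kmt2a share was 54.8% in listed PGCLC (47.4% to 62.0%) and 65.0% in other EB cells (62.1% to 67.8%). On d2 it was 52.7% (44.3% to 61.1%) against 66.6% (62.7% to 70.3%), and on d4, with 26 and 16 UMIs in PGCLC, 61.9% (45.6% to 76.4%) against 62.9%. Whether the days differ was not tested. The other members had pooled ratios from 0.879 for Kmt2c to 1.26 for Setd1a (0.996 to 1.58), with intervals that held 1. On d2 alone the intervals of Kmt2b and Setd1a excluded 1, with ratios of 1.35 (1.01 to 1.78) and 1.35 (1.03 to 1.75), and on d4 the ratios were 0.729 (0.408 to 1.22) and 0.870 (0.485 to 1.46).

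The MLL3 and MLL4 genes gave few UMIs in these small groups. Kmt2c had 10.2 CPM in d2 PGCLC (30 UMIs) and 27.5 in d4 PGCLC (29 UMIs), against 13.3 and 21.6 in other EB cells of the same day. Kmt2d had 15.7 CPM in d2 PGCLC (46 UMIs) and 12.3 in d4 PGCLC (13 UMIs), against 12.0 and 17.0. All 4 of these ratios to other EB cells had intervals that held 1, so a difference was not detectable at this depth. Between the days the PGCLC intervals of Kmt2c lay apart (6.90 to 14.6 and 18.4 to 39.5 CPM), as did those of its share of the pair, 39.5% on d2 (28.4% to 51.4%) and 69.0% on d4 (52.9% to 82.4%). The mesoderm list summed to 171.0 CPM in listed PGCLC and 999.7 in other EB cells and the extraembryonic ectoderm list to 31.3 and 296.4, so the other EB cells are a mixture of lineages whose part in the ratios was not tested.

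In the R1 table the targeted genes come first. Kmt2c had 47.5 CPM in wild-type (44.6 to 50.6) and 53.8 in dCD d4 EB (50.9 to 56.9), a ratio of 1.13 (1.04 to 1.23). Kmt2d had 29.4 CPM (27.1 to 31.9) and 29.1 CPM (26.9 to 31.4), a ratio of 0.989 (0.884 to 1.11). Transcripts of both were thus counted at similar levels in dCD cells. The dCD line carries mutations in the catalytic domains, and counts per gene hold no sequence, so these values cannot check the genotype.

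Of the 10 members 0 were higher in dCD, against 14.6% of 13148 genes, and 0 lower, against 10.7%. Setd1a had 30.5 CPM in wild-type (28.2 to 33.0) and 37.6 in dCD (35.1 to 40.2), a ratio of 1.23 (1.11 to 1.37). Paxip1 had 27.6 and 33.8 CPM, a ratio of 1.22 (1.10 to 1.37), and Kdm1a 235.8 and 256.7 CPM, a ratio of 1.09 (1.05 to 1.13). Setd1a, Paxip1, Kdm1a and Kmt2c were the members whose intervals excluded 1, all on the higher side in dCD. Of all genes tested, 49.3% changed less than Setd1a, 48.0% less than Paxip1, 32.4% less than Kmt2c and 22.9% less than Kdm1a. None of the 4 thus changed more than most genes. The share of all genes whose intervals excluded 1 is not given here. Kmt2a had 113.1 and 112.4 CPM (ratio 0.994, 0.939 to 1.05), and Kmt2b 57.4 and 60.8 CPM (1.06, 0.980 to 1.15). Kdm6a had 40.0 and 37.5 CPM (0.938, 0.851 to 1.03), Setd1b 33.9 and 32.0 CPM (0.945, 0.850 to 1.05), and Ncoa6 29.7 and 28.1 CPM (0.946, 0.846 to 1.06). The intervals of these 5 and of Kmt2d held 1 and all lay inside the 1.5-fold rule.

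The cell makeup of these libraries differed. The mesoderm list summed to 1132.3 CPM in wild-type and 274.8 in dCD, led by Hand1 in both, and all 4 of its genes had UMIs. The extraembryonic ectoderm list summed to 20.6 and 214.0 CPM, led by Esx1 in wild-type and Rhox6 in dCD, with Elf5 at 3 UMIs or fewer in both. That difference lay in Rhox6, at 4.23 and 110.1 CPM, and Rhox9, at 5.83 and 91.3, while Esx1 had 10.5 and 12.6. Of 8 clusters of the joined cells, 5 held at least 30 cells of each genotype, and a single cluster held 532 wild-type and 20 dCD cells. Averaged within those 5 clusters, the log2 ratio was 0.09 for Setd1a in place of 0.29, 0.02 for Kmt2c in place of 0.18, 0.27 for Kmt2a in place of -0.01 and 0.38 for Ncoa6 in place of -0.08, all within the rule. Under this setting 14.6% of all genes were higher and 3.66% lower in dCD, against 14.6% and 10.7% by the main rule. Values within clusters are not given here for Paxip1 and Kdm1a, whose intervals also excluded 1, nor for the other members. The part of cell makeup in the ratios was not tested. Genotype, clone and library cannot be told apart here.

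**Figure D3:**
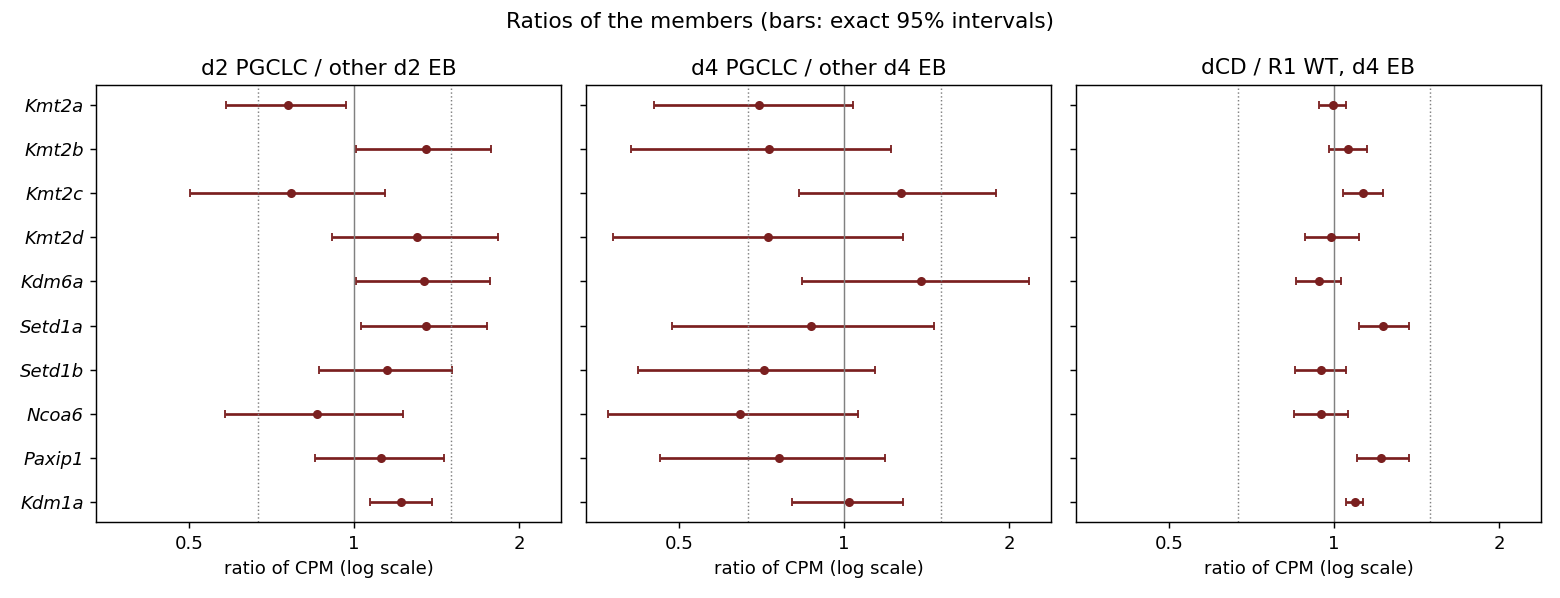
Ratio of CPM for each member (x axis, log scale) in d2 PGCLC over other d2 EB cells, d4 PGCLC over other d4 EB cells and dCD over wild-type R1 d4 EB, with exact 95% intervals as bars, a solid line at 1 and dotted lines at the 1.5-fold rule. The dCD ratios lie between 0.938 and 1.23, and the intervals of the d4 PGCLC ratios are the widest.

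Many members were caught in a minority of cells, so cell-to-cell variation was read after each cell was thinned to the same number of UMIs. That number was 15374 in the E14Tg2a table and 6831 in the R1 table. Cells were left out of every library, from 4 in 2i ESC to 37 in d4 EB among the E14Tg2a libraries. In the R1 table they were 50 in wild-type and 170 in dCD. A UMI of Kmt2d was then found in 8.97% of 2i ESC (5.56% to 13.5%) and 26.3% of d4 EB cells (21.6% to 31.4%), and without thinning in 22.9% and 35.3%. A Poisson count of the same mean would give 8.58% and 24.9%. In the E14Tg2a table this Poisson share lay within the interval of the observed share in 80 of 80 values of a member in a library, and the variance was 1.04 times the mean at the median. In the R1 table it did so in 16 of 20 values, and in the other 4 fewer cells held a UMI than a Poisson count gives. These were Kmt2a in both lines, with 48.3% observed and 51.3% from Poisson in wild-type and 51.4% and 54.0% in dCD, Kmt2c in dCD, with 26.6% and 29.1%, and Kdm1a in wild-type, with 76.9% and 79.7%. In the R1 table the variance was 1.05 times the mean at the median and 1.24 times at most, against 1.34 at most in the E14Tg2a table. The R1 libraries kept 1366 and 1529 cells, against 223 to 519 in the E14Tg2a libraries, so their intervals were narrower. The counts of values within intervals thus do not compare variation between the tables. No cell type here is known to lack the members, so the share that free RNA gives was not measured.

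Another 31 genes, listed as other H3K4 genes, were read by the same rule. Besides enzymes and subunits of H3K4 methylation they included partners of LSD1 such as Hdac1 and Hdac2. The list also went beyond H3K4 methylation, with Kdm6b, Uty, Ep300 and Crebbp. Pagr1a, Prdm9 and Kdm5d had too few UMIs in every comparison. From 2i ESC to d2 EpiLC 8 of the 26 genes with enough UMIs were higher, against 28.7% of all genes, and 4 lower, against 11.6%. With the median of all genes set to 0 this turned to 4 higher, against 18.3%, and 8 lower, against 17.4%, so the side that held more genes depended on the scaling. Kdm6b, Uty and Ep300 were among those higher by the main rule but not after centring. Setd7, an H3K4 monomethyltransferase, went from 0.457 CPM (4 UMIs) to 14.8, a ratio of 32.4 (12.4 to 120.2). Phf21a, which belongs to the LSD1 complex, went from 5.02 to 19.6 CPM, and Wdr5, a core subunit, from 150.5 to 68.8 CPM. The core subunits thus did not hold one level: Ash2l went from 204.9 CPM in d1 EpiLC to 87.0 in d2 EpiLC and Dpy30 from 765.5 to 416.6.

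From d2 to d4 EB 8 of 28 genes were higher, against 19.4% of all genes, and 2 lower, against 7.64%. Among the partners of LSD1, those past the rule were Rcor1 at 13.0 and 28.1 CPM, Rcor3 at 6.62 and 12.2, Hmg20b at 56.5 and 104.2 and Gse1 at 17.9 and 34.0. The others did not pass it, with ratios of 0.835 for Rcor2, 0.936 for Hdac1, 1.28 for Hdac2 and 0.822 for Phf21a, nor did Kdm1a at 0.886. In listed PGCLC 2 of 28 were higher than in other EB cells, against 10.1%, and 10 lower, against 29.1%. After centring 4 were higher, against 16.2%, and 7 lower, against 20.9%. On d2 alone 1 was higher, against 9.69%, and 4 lower, against 20.8%, and on d4 alone 5 were higher, against 11.6%, and 15 lower, against 45.8%. Kdm5b, an H3K4 demethylase, had 145.9 CPM in PGCLC and 88.1 in other EB cells, a ratio of 1.66 (1.51 to 1.82). Its ratio was 1.36 on d2 (1.21 to 1.54), short of the rule, and 2.46 on d4 (2.11 to 2.86). Rbbp5, a core subunit, had 15.5 and 8.49 CPM, a ratio of 1.83 (1.35 to 2.46), with 1.74 on d2 (1.17 to 2.54) and 2.23 on d4 (1.32 to 3.61). Kdm6b, the paralog of Kdm6a, had 20.6 and 52.1 CPM, a ratio of 0.395 (0.312 to 0.495), on the other side of 1 from Kdm6a, with 0.392 on d2 and 0.403 on d4. Also lower in PGCLC were Men1 at a ratio of 0.412, Hcfc2 at 0.426, Kmt2e at 0.475, Kdm1b at 0.481 and Setd7 at 0.519. So were these partners of LSD1: Rcor3 at 0.122 (0.0391 to 0.288, 5 UMIs in PGCLC), Gse1 at 0.482, Rcor1 at 0.551 and Hmg20b at 0.645. The other partners did not pass, with ratios from 0.742 for Hdac2 to 1.19 for Rcor2. These ratios are pooled, and not all of the lower genes passed on both days. In dCD 3 of 28 were higher, against 14.6%, and 1 lower, against 10.7%. The higher ones were Kdm5b at 360.3 against 237.0 CPM, Rcor2 at 47.7 against 29.5 and Kdm1b at 5.11 against 2.82, and the lower one Hmg20b at 99.1 against 155.6. Their log2 ratios were 0.60 for Kdm5b, 0.67 for Rcor2, 0.68 for Kdm1b and -0.65 for Hmg20b. With thinned cells the calls of Kdm5b and Rcor2 ended, and of the 4 only Kdm1b passed within clusters. As Kdm5b lay just past the rule, lost calls alone do not show how far a ratio moved. None of these counts was tested against its share of all genes.

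For each member the 2 genes with the most similar course over the 8 E14Tg2a libraries were taken from 6985 genes with a mean of at least 10 CPM. They were Crabp2 (r = 0.979) and Pnpla8 (0.971) for Kmt2a, Gabpa (0.963) and Rnf165 (0.960) for Kmt2b, Ubr3 (0.957) and Xbp1 (0.951) for Kmt2c, and Sec24b (0.990) and Marcks (0.983) for Kmt2d. For the SET1 genes they were Asf1a (0.975) and Haus2 (0.972) with Setd1a and Virma (0.991) and Zc3h4 (0.977) with Setd1b. The subunits had Klhdc3 (0.981) and Cnot2 (0.964) for Kdm6a, Ext2 (0.975) and Abcd3 (0.967) for Ncoa6, and Exo1 (0.974) and Naa25 (0.968) for Paxip1, and Kdm1a had Rps13 (0.993) and Stat6 (0.957). For Kmt2c the rank coefficients were lower, with rho = 0.667 for Ubr3 and 0.786 for Xbp1. The coefficients rest on 8 libraries and do not read the size of a change: Crabp2 ran from 1.26 to 47.8 CPM while Kmt2a ran from 16.9 to 34.2.

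The promoters of Kmt2c and Kmt2d, the genes mutated in dCD, are shown as a description. Whether their sequences relate to the courses of the transcripts was not tested. RefSeq windows of 300 bases (GRCm38.p6), from 250 bases before to 50 after the RefSeq start, were found for 8 of the 10 members. Those of Setd1a and Ncoa6 start 719 and 33111 bases inside the genes as given above, and the other 6 at most 141 bases from the gene start. The letters GGGCGG, searched on both strands, occurred in 5 of these 6 windows and in neither that of Setd1a nor that of Ncoa6. These 6 windows held 21 to 56 CpG. Of all 32851 windows 35.7% held the letters, a share not limited to windows near a gene start or matched for CpG. Those shares are thus not comparable. Matches are in capitals below and may overlap. The Kmt2c window (chr5:25498734-25499033, minus strand) held 12 matches and 56 CpG, and the Kmt2d window (chr15:98871156-98871455, minus strand) 4 matches and 27 CpG, against a median of 7 CpG in all windows. A match is a description of the letters and not a site.
Kmt2c: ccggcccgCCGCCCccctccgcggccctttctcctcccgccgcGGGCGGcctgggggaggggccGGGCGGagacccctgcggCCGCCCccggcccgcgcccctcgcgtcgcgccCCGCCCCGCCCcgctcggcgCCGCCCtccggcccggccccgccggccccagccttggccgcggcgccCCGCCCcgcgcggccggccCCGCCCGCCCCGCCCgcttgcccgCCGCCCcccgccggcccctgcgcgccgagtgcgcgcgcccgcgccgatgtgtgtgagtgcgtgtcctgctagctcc
Kmt2d: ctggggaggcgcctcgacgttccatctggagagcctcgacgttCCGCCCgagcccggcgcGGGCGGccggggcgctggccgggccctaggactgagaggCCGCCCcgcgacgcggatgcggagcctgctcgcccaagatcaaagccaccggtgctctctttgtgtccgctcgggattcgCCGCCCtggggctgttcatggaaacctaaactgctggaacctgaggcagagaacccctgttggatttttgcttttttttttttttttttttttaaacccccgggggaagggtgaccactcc

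Annotated genes overlap some members. On the same strand these were Gm48314 for Kmt2a, Gm20432 for Kmt2c, Gm49388 for Setd1a, Gm14239 for Ncoa6 and Gm12987 for Kdm1a. On the opposite strand they were AC061963.1 for Kmt2a, Gm18343, Gm42585 and Hspe1-ps3 for Kmt2c, 9430064I24Rik for Setd1a, Gm26745 for Setd1b and Luzp1 for Kdm1a. How UMIs in shared stretches were assigned is not given in the sources used here, so the levels of these members may include UMIs that belong to their neighbors.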

How the data were processed

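The authors deposited UMI counts per gene and cell. Per the methods, the E14Tg2a libraries were counted with Cell Ranger on GRCm38 and brought to the same mapped depth, and R1 cells with few expressed genes were removed; in the R1 table the fewest genes in a cell were 2006. The counter and gene annotation of the R1 table are not given in the sources used here. Libraries were told apart by barcode suffix or cell name, and 0 columns were left unused. Ensembl identifiers were matched to symbols for 27645 of 27998 genes, and positions came from GENCODE on GRCm38. UMIs were summed per group and scaled to CPM, with numpy 2.4.6, scipy 1.17.1 and pandas 2.3.3 in Python 3.11.15. Doublets were called per library with Scrublet in scanpy 1.11.5 (0.589% to 6.23% of cells) and kept, except in an alternative. Clusters came from scikit-learn 1.9.0 and figures from matplotlib 3.10.9. The computations were tested on simulated data. Named were all members, genes of the H3K4 list past the fold in a comparison (examples of them here) and 2 genes of similar course per member. The members and lists were chosen with earlier results of these data known. The shares within paralog pairs, the coefficients between members and the promoters were added after the data were seen.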

Additional observations from a re-analysis of the deposited data

How the results depend on the processing

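No paired analysis was possible because each condition had 1 library; listed PGCLC and other EB cells, which share the d2 and d4 EB libraries, are also given by day. Of the counts and medians recomputed, 152 stayed close to the main value (counts within 1.5 times) and 38 did not, and no changed member turned its direction. Counts were compared by number alone, and 0 under both settings was taken as close. A count could thus stay close while its genes changed, as when Setd1b took the place of Ncoa6 after thinning from d2 EpiLC to d2 EB. With a ratio of at least 2, the members changed numbered 2 from 2i ESC to d1 EpiLC, against 17.8% of all genes. They numbered 0 in the other stage comparisons, against 6.55% to 23.2%. With the same rule the other H3K4 genes are given with the share of all genes in brackets. They numbered 5 of 26 from 2i ESC to d1 EpiLC (17.8%) and 4 of 26 to d2 EpiLC (15.4%). They were 0 of 27 to d3 EpiLC (6.55%) and 2 of 27 to EpiSC (13.8%). From 2i ESC to d2 EpiLC they were 5 of 26 (20.6%), from there to d2 EB 2 of 27 (23.2%) and to d4 EB 3 of 28 (12.8%). In S+L ESC they were 2 of 26 (9.72%), in PGCLC 5 of 28 (21.1%) and in dCD 0 of 28 (11.3%). Centring gave 1 member from d3 EpiLC to EpiSC, 2 from 2i ESC to d2 EpiLC and 1 in PGCLC. Of all genes 31.1%, 35.7% and 37.1% then passed the fold. Per-cell means gave 0 members from d1 to d2 EpiLC (33.0% of all genes) and 3 from 2i ESC to d2 EpiLC (40.2%). Without doublets there were 1 member from d3 EpiLC to EpiSC (33.5%), 2 from 2i ESC to d2 EpiLC (39.8%), and 3 other genes from d2 to d3 EpiLC (24.0%). Thinning gave 2 members from d1 to d2 EpiLC (30.6%), 3 from 2i ESC to d2 EpiLC (37.9%), 3 in S+L ESC (24.8%) and 1 in PGCLC (39.6%). Of the other genes it gave 5 in S+L ESC (24.8%) and 2 in dCD (24.9%). Without mitochondrial and ribosomal protein genes in the total there were 2 members from 2i ESC to d2 EpiLC, 1 in PGCLC, and 3 other genes from d2 to d3 EpiLC. Of all genes 38.1%, 38.8% and 25.1% passed the fold in these comparisons. In d4 cells alone PGCLC gave 1 member (Ncoa6, lower) and 20 other genes (5 higher, 15 lower), with 57.4% of all genes past the fold, and in d2 cells alone 5 other genes (1 higher, 4 lower), with 30.5%. Over the comparisons 23.9% to 43.6% of all genes passed the main rule, 6.55% to 23.2% a ratio of at least 2, 23.6% to 44% the main rule after thinning, 23.4% to 45.2% with per-cell means and 24% to 43.6% without doublets. Without thinning the variance in the E14Tg2a libraries was 1.30 times the mean at the median. It ran from 0.991 for Kmt2d in d4 EB to 2.56 for Kdm1a in S+L ESC. The causes were not tested. Members held 63 to 1309 UMIs in an E14Tg2a library and 13 to 85 in d4 PGCLC.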
